A study of Mus musculus with 30 samples.

Results

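The genes described here are the Rab GTPases, the sorting nexins (Snx) and the genes named for vacuolar protein sorting (Vps) that were measurable in mouse brain. They were chosen by symbol, as Rab, Snx or Vps followed by a number and at most a short suffix, with a mean level above 2 on the log2 RPKM scale over all 30 libraries. The rule gave 113 genes, 54 Rab, 29 Snx and 30 Vps, of 34871 genes in the table, and all 113 were among the 23695 genes tested. The libraries were made from the cerebral hemispheres of 30 mice aged 8 months: 10 wild type (WT, Tmem106b +/+), 10 with a single intact copy (HET, Tmem106b +/-) and 10 with none (KO, Tmem106b -/-), each genotype with 5 females and 5 males, 6 mice of cohort 1 and 4 of cohort 2. Tmem106b encodes a membrane protein of late endosomes and lysosomes. The sources used here give neither the mouse strain nor the altered part of the gene, nor what the cohort number stands for.

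Rab proteins are small GTPases that mark compartments: in the form bound to GTP they recruit tethers, motors and sorting coats to a membrane. Sorting nexins carry a PX domain that binds phosphoinositides of endosomes, and many shape tubules through which cargo leaves. The Vps genes, first defined in yeast, supply the machines that act with them: retromer retrieves receptors, the HOPS and CORVET tethers join endosomes and lysosomes, GARP and EARP receive vesicles at the Golgi and at recycling endosomes, ESCRT sorts ubiquitylated cargo into internal vesicles, and VPS13 proteins move lipids between membranes.

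Values are the deposited log2 RPKM after conditional quantile normalization, a scaling that removes trends with length and GC content, so a difference of 1 is a doubling. A gene was called where its adjusted p was under 0.05 over all 23695 genes. In KO brains Tmem106b itself lay at 7.43 to 7.67, against 8.54 to 8.62 in HET and 9.06 to 9.27 in WT, with no overlap of the 3 groups. The oligodendrocyte, neuron, astrocyte, microglia and endothelial marker lists were all detected, with no marker gene under 2 in any library. RNA integrity numbers (RIN) ran from 8.5 to 10 and the read depth is unknown.

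The members covered a wide range of levels. The highest was Rab3a, which acts in synaptic vesicle release, at 11.23 over the 30 brains, followed by the Golgi Rabs Rab6b (11.11), Rab2a (11.02) and Rab6a (10.97) and by Rab7, the main Rab of late endosomes, at 10.38. All of these but Rab7 act in the secretory route. The lowest members were Rab38 (2.44), Rab20 (2.85), Snx20 (3.14), Rab39 (3.55) and Rab32 (3.75). Rab38 and Rab32 serve lysosome-related organelles such as melanosomes. The nearest gene under the threshold was Snx31 (1.13), followed by Rab19 (0.72), and the other 3 genes that the symbols matched lay further below, Rab25 (-0.39), Rab44 (-1.21) and Rab17 (-1.70). Retromer and its BAR-domain nexin partners were of high level, with group medians of 8.51 and 8.45. The median was 7.19 for the HOPS and CORVET group, which here also counts Vps33b, and 6.33 for the VPS13 proteins. Vps33b is a homologue of Vps33a and not a subunit of either tether.

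**Figure D1:**
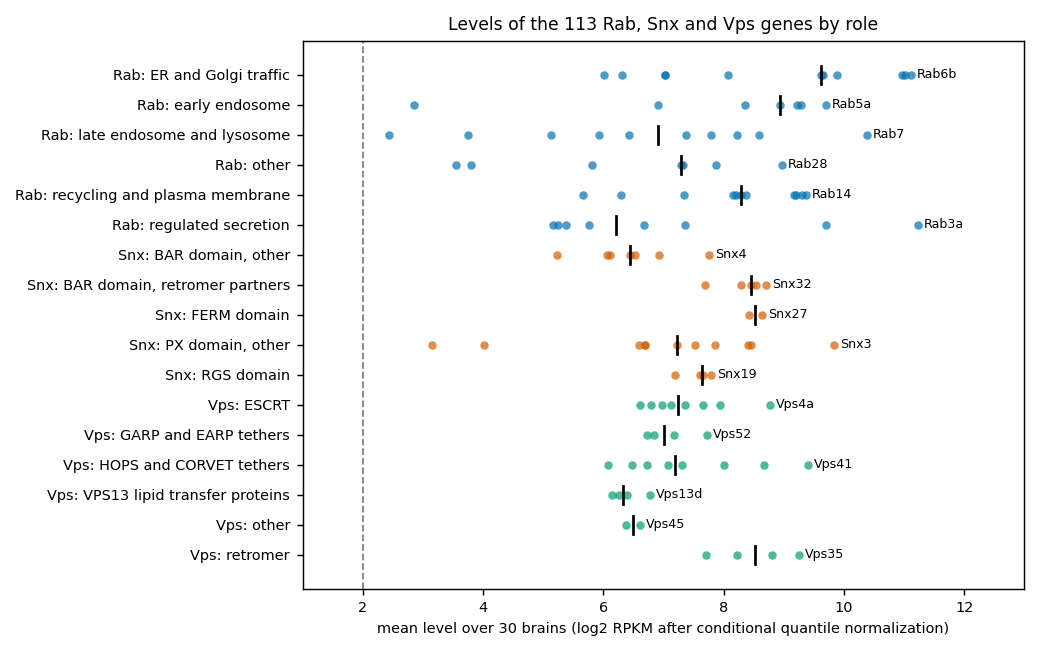
Mean level of each of the 113 members over 30 brains (horizontal axis, log2 RPKM after conditional quantile normalization) by role, with the median of each role as a black bar and the highest member named. Rab3a lies highest at 11.23, and the dashed line is the level of 2 that membership required.

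Members varied little between mice. The median SD between WT mice was 0.068 over the members, 0.148 over all genes tested and 0.113 over the 18867 genes with a mean above 2. That bound is only a floor, so these genes were not matched to the members in level. Rab5a, the early endosome Rab that drives homotypic fusion, had an SD of 0.025, the lowest of all members. The largest SDs were those of Rab42 (0.489), Rab38 (0.404), Snx20 (0.293), Rab32 (0.262) and Vps13c (0.231), and 4 of these 5 genes had levels under 4. The 95% interval of a KO against WT difference accordingly reached 0.055 to each side for the median member, and was widest for Rab38.

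Loss of Tmem106b left nearly all of these genes close to their WT level. In KO against WT, 1 of the 113 members was called, Rab31, which fell, and none rose. That is 0.885% of the members, beside 1.00% of all genes tested, 0.722% lower and 0.279% higher. At an unadjusted p under 0.05 there were 16 members, 8 lower and 8 higher, or 14.2% beside 12% of all genes (2846 of 23695). The median difference was 0.0052 over the members and 0.0061 over all genes, and 67 members lay above 0 and 46 below. For 104 of 113 members the whole 95% interval lay within 0.2 log2 of no change. That held for 52.0% of all genes tested and 65.4% of those with a mean above 2, neither set matched to the members in level. Among Rab genes 47 of 54 were within that bound, among Snx genes 27 of 29 and among Vps genes 30 of 30. The members outside it were mostly of low level, such as Rab38, with a difference of -0.23 (95% interval -0.68 to 0.23).

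**Figure D2:**
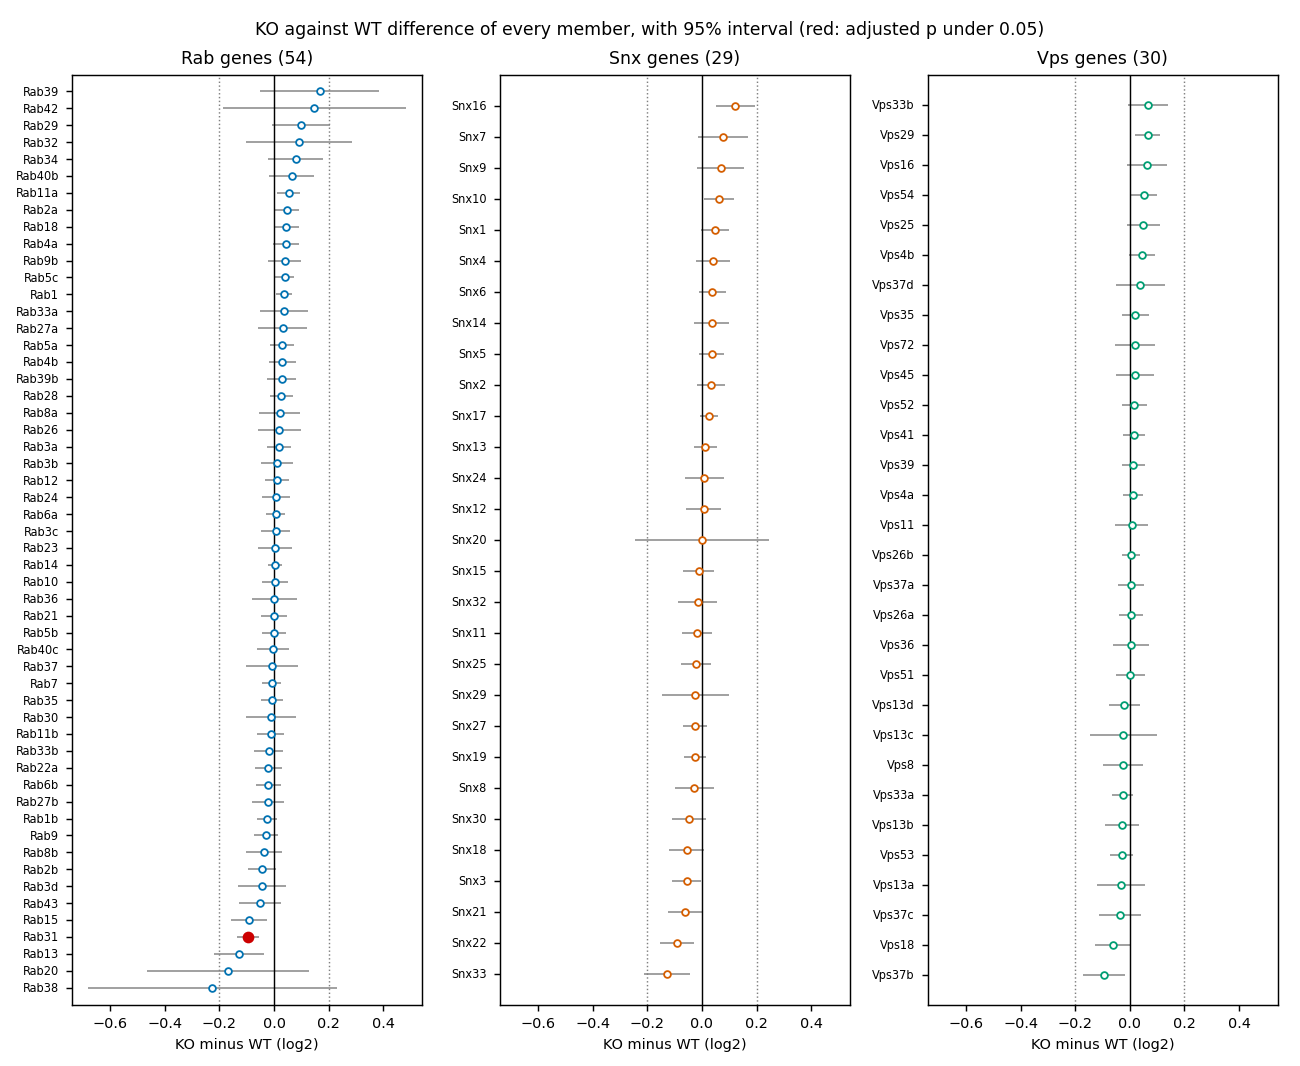
KO minus WT difference (horizontal axis, log2) of each of the 54 Rab, 29 Snx and 30 Vps genes, with its 95% interval from the limma fit and dotted lines at 0.2 to each side of 0. Rab31 is the filled red point, the single member with an adjusted p under 0.05, and the widest interval is that of Rab38.

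Rab31, also known as Rab22b, belongs to the Rab5 subfamily and acts in transport from the trans-Golgi network to endosomes. The gene (ENSMUSG00000056515) lies on the minus strand at chr17:65651726-65772752 of mm10 and overlaps no other gene of the table. Its level ran from 8.34 to 8.48 in WT (median 8.41), from 8.24 to 8.42 in HET (median 8.35) and from 8.23 to 8.39 in KO (median 8.32). All 10 KO mice lay below the WT mean and 7 lay below every WT mouse, so the groups overlapped in part, with HET spread over both. The KO against WT difference was -0.094 ± 0.020 (SE), or -6.31%, with an adjusted p of 0.0139 in limma. A two-sided permutation test over the mice, with no covariates, was run on the 5 members of lowest p in this same comparison; it reuses the same mice and is not corrected for that choice. It gave p = 0.00056 for Rab31, 0.00426 for Snx16, 0.0606 for Snx33, 0.0286 for Snx22 and 0.0348 for Vps29. In HET the difference from WT was -0.072 ± 0.020 (limma adjusted p = 0.648), and KO differed from HET by -0.022 ± 0.020 (limma adjusted p = 0.823). Along the number of deleted copies the slope was -0.047 a copy (limma adjusted p = 0.0164).

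The Rab31 difference was of like size in each division of the mice: -0.097 in cohort 1 and -0.089 in cohort 2, -0.084 in females and -0.11 in males. None of these smaller fits called it, nor did a fit with genotype as its only term (-0.090, limma adjusted p = 0.0895). All 30 fits that left out a mouse did call it. Rab31 was picked from these same mice, so neither the divisions nor the fits with a mouse left out are an independent check. Oligodendrocyte markers fell in the same comparison: 10 of 12 were called lower, all 12 were below 0 and their median difference was -0.24. The summed level of these markers ran from 13.49 to 13.72 in WT, from 13.44 to 13.61 in HET and from 13.28 to 13.52 in KO. Of 8 endothelial markers 1 was called lower, 6 were below 0 and the median difference was -0.090, with a summed level from 10.22 to 10.46 in WT, from 10.11 to 10.44 in HET and from 10.02 to 10.54 in KO. The part of either list in the Rab31 result was not tested, and in whole tissue fewer cells of a type and less RNA per cell cannot be told apart. Rab31 also had a slope of -0.076 for each unit of RIN (unadjusted p = 0.0054, limma adjusted p = 0.277), with RIN from 9 to 10 in WT and from 8.5 to 10 in KO.

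The promoter of Rab31 is shown because it is the called member, and those of Rab5a, Vps16 and Vps33a because they carry the motif TCACGTGA, the core of the CLEAR element that the lysosomal regulator TFEB binds. Each is a RefSeq window of 300 bases around the transcription start on GRCm38.p6, written 5′ to 3′ on the strand of the gene, and capitals mark CACGTG (the E-box) or the longer TCACGTGA around it. Both motifs read the same on either strand.
Rab31, chr17:65772703-65773002, minus strand: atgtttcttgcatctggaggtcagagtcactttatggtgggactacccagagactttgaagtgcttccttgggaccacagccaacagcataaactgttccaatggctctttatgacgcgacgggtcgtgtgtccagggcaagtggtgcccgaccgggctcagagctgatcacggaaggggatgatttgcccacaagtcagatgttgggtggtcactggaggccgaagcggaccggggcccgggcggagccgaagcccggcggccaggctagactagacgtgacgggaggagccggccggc
Rab5a, chr17:53478984-53479283, plus strand: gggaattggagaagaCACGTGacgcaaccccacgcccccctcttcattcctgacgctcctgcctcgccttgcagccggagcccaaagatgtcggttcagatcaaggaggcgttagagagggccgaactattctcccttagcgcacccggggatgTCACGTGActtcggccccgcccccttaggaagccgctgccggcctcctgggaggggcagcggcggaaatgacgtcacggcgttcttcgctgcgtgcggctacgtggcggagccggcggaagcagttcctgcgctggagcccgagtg
Vps16, chr2:130424070-130424369, plus strand: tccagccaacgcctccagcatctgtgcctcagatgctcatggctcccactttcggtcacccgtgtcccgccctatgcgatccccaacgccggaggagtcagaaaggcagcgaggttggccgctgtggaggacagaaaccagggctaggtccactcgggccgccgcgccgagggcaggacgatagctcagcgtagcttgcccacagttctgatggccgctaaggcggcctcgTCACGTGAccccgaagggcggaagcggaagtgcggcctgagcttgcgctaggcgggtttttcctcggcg
Vps33a, chr5:123572966-123573265, minus strand: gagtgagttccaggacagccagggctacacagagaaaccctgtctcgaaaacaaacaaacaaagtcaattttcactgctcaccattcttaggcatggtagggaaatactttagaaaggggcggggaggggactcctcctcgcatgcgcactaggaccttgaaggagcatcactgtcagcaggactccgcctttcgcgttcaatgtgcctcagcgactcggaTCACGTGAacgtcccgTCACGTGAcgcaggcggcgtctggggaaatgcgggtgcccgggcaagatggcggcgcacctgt
The Rab31 window holds no E-box, Rab5a holds a CACGTG and a TCACGTGA, and Vps33a holds TCACGTGA in 2 places. Of the 85 members matched to a RefSeq promoter, 6 held TCACGTGA (7.06%), against 304 of 27025 genes (1.12%), and 12 held CACGTG (14.12%), against 8.09% of all genes. The 27025 were all genes with a RefSeq promoter, not selected by brain level or GC content, so these shares do not compare like sets. The 6 were Rab5a and Rab21 of early endosomes, Rab24 of the autophagic route, Vps26a of retromer and Vps16 and Vps33a of HOPS. None of these 6 was called in KO against WT, beside 1.00% of all genes tested. Their differences ran from -0.026 (Vps33a) to 0.062 (Vps16). A match describes these letters in this window and nothing more.

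The other early endosome Rabs did not pass the test. Rab5a, Rab5b and Rab5c, which act together in early endosome fusion, differed by 0.030, -0.00026 and 0.039 between KO and WT. Rab5a lay at 9.64 to 9.72 in WT and 9.61 to 9.82 in KO, with overlapping groups. Rab20, of low level, differed by -0.17, with an interval from -0.47 to 0.13.

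Of the 10 Rabs of late endosomes and lysosomes, none had an unadjusted p under 0.05 in KO against WT. These compartments also hold TMEM106B. Over all genes tested the share was 12%, so none among 10 says little. Rab7 lay at 10.31 to 10.42 (median 10.40) in WT, 10.31 to 10.40 (median 10.36) in HET and 10.32 to 10.45 (median 10.37) in KO. The 3 groups overlapped, and the KO against WT difference was -0.0081, with a 95% interval from -0.042 to 0.026. Rab9, which returns mannose 6-phosphate receptors to the Golgi, differed by -0.028 and Rab12 by 0.011. Rab29 and Rab32, both linked to the kinase LRRK2, differed by 0.098 and 0.091 with intervals that include 0.

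Of the 11 recycling and plasma membrane Rabs, 3 had an unadjusted p under 0.05 and none was called. Over all genes tested these shares were 12% and 1.00%, so counts among 11 genes say little. Rab13, which carries cargo to the cell surface, ran from 5.60 to 5.93 in WT, from 5.45 to 5.80 in HET and from 5.40 to 5.86 in KO, with overlapping groups. Its difference was -0.13 ± 0.045 (limma adjusted p = 0.203), -0.22 in cohort 1 and 0.024 in cohort 2. Rab15, an endosomal Rab of neurons, differed by -0.091 ± 0.032 (limma adjusted p = 0.214) and overlaps Fntb on the other strand. Rab11a, of the slow recycling endosome, was 9.08 to 9.19 in WT and 9.07 to 9.25 in KO and differed by 0.054 ± 0.020 (limma adjusted p = 0.253). Its close relative Rab11b differed by -0.012. Rab4a (0.043), Rab8a (0.020), Rab10 (0.0029) and Rab35 (-0.0082) completed the named recycling Rabs, and the interval of each included 0.

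The Rabs of the secretory route showed small differences. Rab1, which acts between the endoplasmic reticulum and the Golgi, ran from 9.54 to 9.65 in WT and from 9.58 to 9.68 in KO, a difference of 0.036 ± 0.014 (limma adjusted p = 0.254). Rab2a differed by 0.047, Rab43 by -0.051, Rab6a by 0.0060 and Rab6b by -0.021. Among the 8 Rabs of regulated secretion none had an unadjusted p under 0.05, beside 12% of all genes tested. For 8 genes that count says little. Rab3a differed by 0.018, Rab3d by -0.044, Rab27a by 0.032 and Rab27b by -0.022. Of the 7 remaining Rabs, which have no shared role here, Rab39 differed by 0.17 and Rab40c by -0.0046.

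None of the 29 sorting nexins was called, beside 1.00% of all genes tested. An unadjusted p under 0.05 was found for 5, beside 12% of all genes tested. In a group of 29 these counts say little. Snx16, a PX-domain protein of late endosomes, came closest: its level ran from 7.33 to 7.62 in WT (median 7.45), from 7.37 to 7.64 in HET (median 7.50) and from 7.47 to 7.67 in KO (median 7.59). All 10 KO mice lay above the WT mean and 2 above every WT mouse. The difference was 0.12 ± 0.035, with an adjusted p of 0.0925 in limma. Snx16 shares bases with Chmp4c, an ESCRT gene on the opposite strand with a mean level of 4.04, and no source used here gives the strand setting of the counts. With limma array weights the Snx16 difference was 0.14 (adjusted p = 0.0396), and it was also called with WT replicate 3, WT replicate 9 or KO replicate 10 left out.

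Snx33, a relative of Snx9 in endocytosis, was lower in part of the KO mice. It ran from 5.15 to 5.43 in WT, from 5.09 to 5.47 in HET and from 4.86 to 5.34 in KO. In KO, 5 mice, all of cohort 1, lay below every WT mouse and 4, all of cohort 2, above the WT mean. Snx33 was also higher in cohort 2 than in cohort 1, as given below, so these counts mix genotype with cohort. The difference of -0.13 ± 0.041 (limma adjusted p = 0.159) was -0.20 in cohort 1 and -0.015 in cohort 2. Snx22, a protein made of little more than a PX domain, differed by -0.091 ± 0.030 (limma adjusted p = 0.170). It was -0.15 in cohort 1, where limma called it (adjusted p = 0.0246), and 0.0017 in cohort 2. Its bases overlap Ppib, a gene of higher level (10.06), on the other strand.

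**Figure D3:**
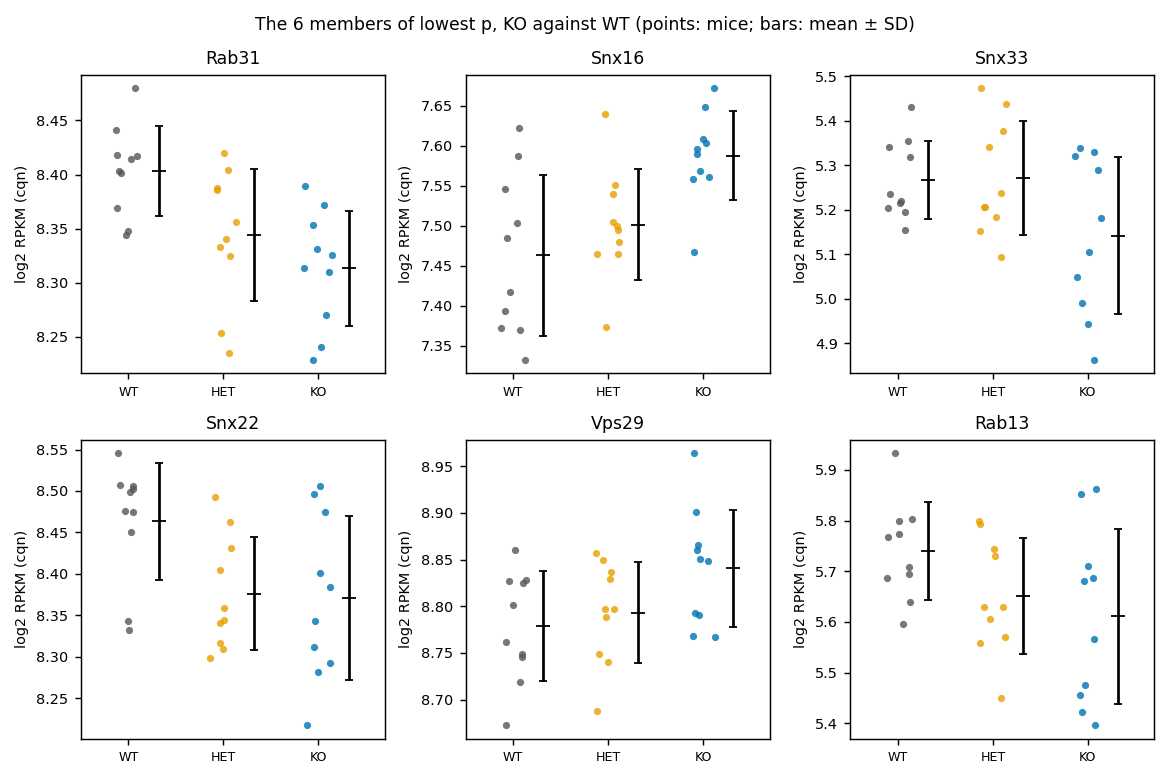
Level of each mouse (points; vertical axis, log2 RPKM after conditional quantile normalization) in WT, HET and KO for the 6 members of lowest p in KO against WT, with mean ± SD as bars (n = 10 mice a group). The 10 KO values of Rab31 lie below the WT mean, and those of Snx16 lie above it.

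The BAR-domain nexins that pair with retromer did not pass the test. Snx1 differed by 0.047, Snx2 by 0.032, Snx5 by 0.036 and Snx6 by 0.038, whereas Snx32, a brain relative of Snx6, differed by -0.015. None of these 5 had an unadjusted p under 0.05, which says little for so few genes. The FERM-domain nexins Snx17 and Snx27, which recycle receptors to the surface, differed by 0.025 and -0.025. Snx3, which takes the Wnt carrier Wntless back with retromer, differed by -0.056 (unadjusted p = 0.0397). Snx14 differed by 0.036, Snx19 by -0.026 and Snx7 by 0.077.

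Among the Vps genes 4 of 30 had an unadjusted p under 0.05, beside 12% of all genes tested. None was called, beside 1.00% of all genes tested. In a group of 30 these counts say little. In retromer all 4 members lay above 0: Vps29 by 0.065 ± 0.023, Vps35 by 0.020, Vps26b by 0.0052 and Vps26a by 0.0045. Vps29 ran from 8.67 to 8.86 in WT, from 8.69 to 8.86 in HET and from 8.77 to 8.96 in KO, and 8 KO mice lay above the WT mean. Its adjusted p was 0.198 in limma. Vps29 overlaps Fam216a, a gene of similar level (8.93) on the other strand.

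Genes of the HOPS and CORVET group, with Vps33b counted in it, moved in both directions around 0. Vps33b differed by 0.067, Vps16 by 0.062, Vps41 by 0.015, Vps39 by 0.013, Vps11 by 0.0062, Vps33a by -0.026 and Vps18 by -0.063, the last with an unadjusted p of 0.0493. In the ESCRT group Vps37b differed by -0.095 ± 0.038 (limma adjusted p = 0.283), Vps25 by 0.049, Vps4b by 0.044 and Vps4a by 0.011. Vps54 of GARP differed by 0.052 and Vps53 by -0.030. All 4 VPS13 genes lay below 0, from -0.034 (Vps13a) to -0.020 (Vps13d), with a Vps13c difference of -0.025. None had an unadjusted p under 0.05, which says little for 4 genes.

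A single lost copy gave no call. In HET against WT, limma called 0 of 113 members (0.00422% of all genes tested), with 10 members at an unadjusted p under 0.05 (8.85%, beside 6.32% of all genes). The lowest p values were those of Rab31, given above, and Rab11a (0.064, unadjusted p = 0.0047). KO against HET likewise had 0 calls in limma (0.118% of all genes tested) and 10 members at an unadjusted p under 0.05 (8.66% of all genes), led by Vps54 (0.088, adjusted p = 0.173). The slope over deleted copies called Rab31 and no other member (1.02% of all genes tested). These comparisons share mice, so they are not independent of each other.

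Genes that act on or with the members were followed in 10 lists of Rab regulators, effectors, WASH and retriever subunits, ESCRT subunits, phosphoinositide enzymes, BORC and BLOC-1, sorting receptors and endosomal SNAREs. In KO against WT 2 of the 175 genes tested were called (1.14%, beside 1.00% of all genes tested), both lower, and 24 had an unadjusted p under 0.05 (13.7%), 13 lower and 11 higher. Tbc1d9b, 1 of 30 Rab GAPs of the TBC family, ran from 8.76 to 8.89 in WT and from 8.63 to 8.81 in KO, where 9 of 10 mice lay below every WT mouse, and it fell by 0.11 ± 0.021 (limma adjusted p = 0.0032). Plekhm2, which links Arl8 on lysosomes to kinesin and was 1 of 14 tested genes of its list, ran from 8.04 to 8.17 in WT and from 7.95 to 8.10 in KO and fell by 0.11 ± 0.020 (limma adjusted p = 0.0031). The other 8 lists had no called gene.

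More members were called between the 2 cohorts than between genotypes. In cohort 2 against cohort 1, with genotype, sex and RIN in the fit, 32 of 113 members were called (28.3%), 18 lower and 14 higher, beside 17.5% of all genes tested (9.42% lower and 8.09% higher) and 20.8% of those with a mean above 2. None of the 32 was called in KO against WT. Only 1 of the 113 members was called there, beside 1.00% of all genes tested, so this count says little. Of these 32, 29 had the same sign within WT, HET and KO taken alone, and 22 kept the call with each mouse left out in turn. The 32 were picked from these same mice, so neither count is an independent check. Leaving out KO replicate 4 brought the count to 23 and the higher members to 7. RIN ran from 9 to 9.8 in cohort 1 and from 8.5 to 10 in cohort 2. Marker lists moved too: 4 of 12 oligodendrocyte and 4 of 8 endothelial markers were higher in cohort 2, while of 10 neuron markers 3 were lower and 1 higher. The part of these markers in the cohort differences was not tested.

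**Figure D4:**
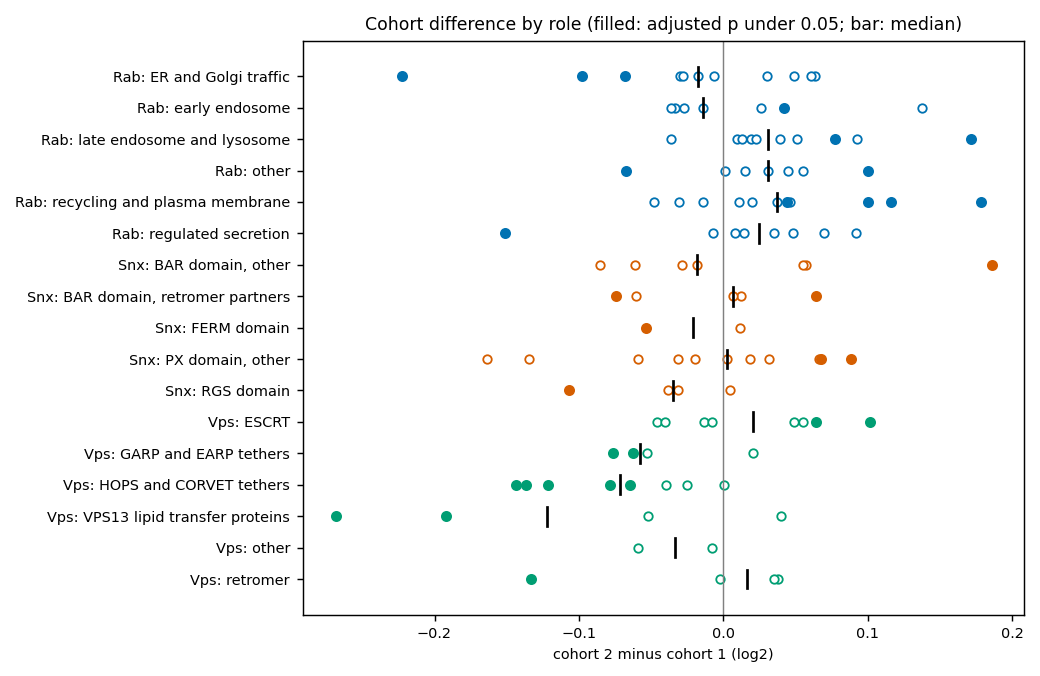
Cohort 2 minus cohort 1 difference (horizontal axis, log2) of each of the 113 members by role, filled where the limma adjusted p was under 0.05, with the median of each role as a black bar. Filled points of the HOPS and CORVET, GARP and EARP and VPS13 rows lie to the left of 0, and those of the recycling Rabs lie to the right.

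By role, the called genes of the tether and VPS13 groups were all lower in cohort 2 and the called recycling Rabs all higher. These groups are small, and 9.42% of all genes tested were called lower and 8.09% higher. Of 8 genes in the HOPS and CORVET group, with Vps33b counted in it, 5 fell and none rose: Vps33b (-0.14), Vps16 (-0.14), Vps11 (-0.12), Vps33a (-0.078) and Vps41 (-0.065). Vps11, a core subunit of both tethers, lay at 7.92 to 8.19 in cohort 1 and 7.84 to 8.01 in cohort 2, with overlap. Of 4 GARP and EARP genes 2 fell, and of 4 VPS13 genes 2 fell. Vps13c, whose human counterpart is a Parkinson disease gene, ran from 6.26 to 6.77 in cohort 1 and from 6.06 to 6.61 in cohort 2, a difference of -0.27 ± 0.051 (limma adjusted p = 0.00069). Vps13a, the chorea-acanthocytosis gene, fell by 0.19.

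In retromer, 1 of 4 genes changed with cohort. Vps35, its core subunit, ran from 9.16 to 9.37 in cohort 1 (median 9.31) and from 9.09 to 9.25 in cohort 2 (median 9.16), a difference of -0.13 ± 0.020 (limma adjusted p = 6.7e-05), while Vps26a (-0.0027) and Vps29 (0.038) were not called. Rab3c, a synaptic vesicle Rab, had the lowest p of all members: it ran from 9.61 to 9.86 in cohort 1 and from 9.52 to 9.69 in cohort 2 and fell by 0.15 ± 0.022 (limma adjusted p = 4.5e-05). Its relative Rab3a, at -0.0075, was not called. The Golgi Rabs Rab30 (-0.22), Rab6b (-0.098) and Rab6a (-0.068) fell as well.

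Among the recycling and plasma membrane Rabs 4 of 11 rose and none fell, among them Rab13 (0.18), Rab8a (0.12) and Rab11b (0.10). Rab11b ran from 8.16 to 8.33 in cohort 1 and from 8.30 to 8.45 in cohort 2, which overlap by a narrow margin. Of the late endosome Rabs, Rab29 (0.17) and Rab9 (0.077) rose. Snx33 lay between 4.86 and 5.38 in cohort 1 and between 5.21 and 5.47 in cohort 2, and rose by 0.19 ± 0.036 (limma adjusted p = 0.00069).

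**Figure D5:**
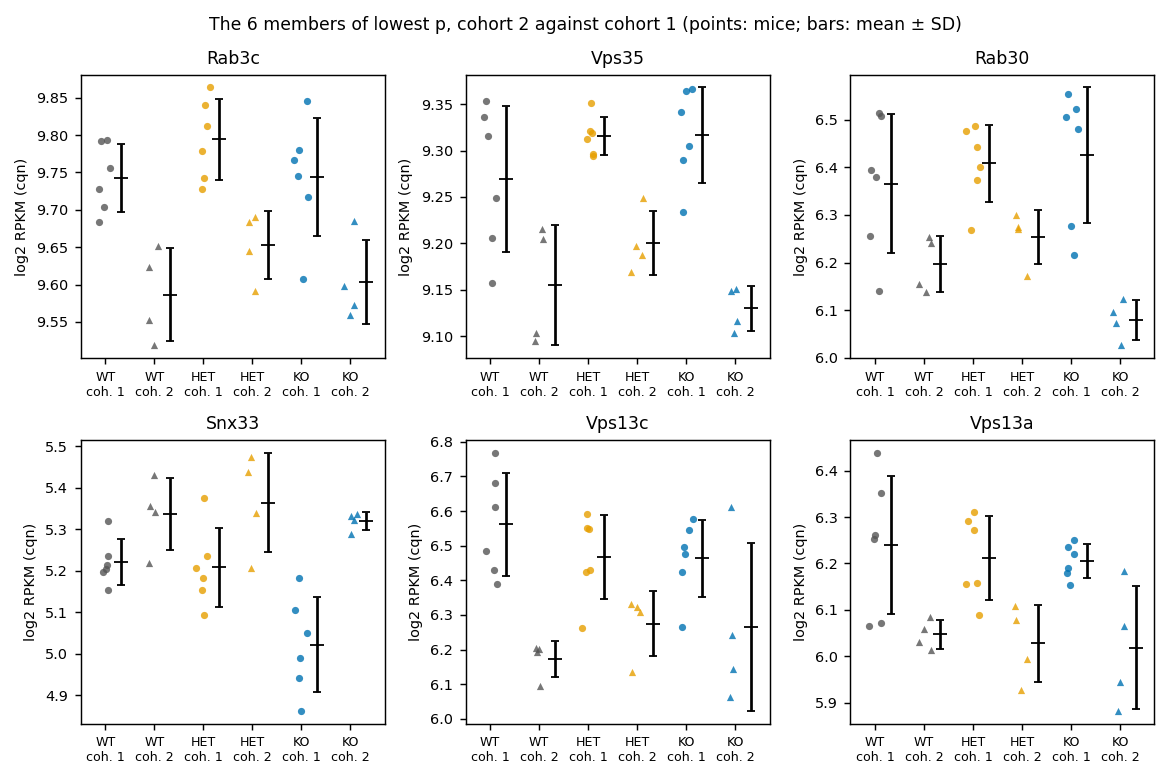
Level of each mouse (points; vertical axis, log2 RPKM after conditional quantile normalization) by genotype and cohort (coh.) for the 6 members of lowest p between cohorts, with mean ± SD as bars (6 mice of cohort 1 and 4 of cohort 2 a genotype). Rab3c, Vps35 and Rab30 lie lower in cohort 2 in each genotype.

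The KO effect itself was compared between cohorts and sexes. The interaction of KO with cohort called 0 of 113 members in limma (0.0338% of all genes tested), with 14 members at an unadjusted p under 0.05 (12.4%, beside 8.53% of all genes). That of KO with sex called 0 in limma (0% of all genes tested), with 12 at an unadjusted p under 0.05 (10.6%, beside 7.10%). For Rab13 the KO effect was higher in cohort 2 by 0.24 (unadjusted p = 0.0071, limma adjusted p = 0.40), and for Snx33 by 0.18 (unadjusted p = 0.034, limma adjusted p = 0.54). The interaction of these 2 genes therefore did not pass the correction. For Rab31 the interaction was 0.0065. Between males and females limma called 0 members (0.333% of all genes tested), with 24 at an unadjusted p under 0.05 (21.2%, beside 12.5% of all genes), the lowest being Rab9, higher in males by 0.067 (adjusted p = 0.0916). RIN called 0 members (0.0633% of all genes tested), with 14 at an unadjusted p under 0.05 (12.4%, beside 10.3%).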

How the data were processed

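The authors deposited a single table of log2 RPKM values after conditional quantile normalization, per the file headers, for 34871 genes in 30 libraries of mouse cerebral hemispheres. Per the submitters' processing notes, alignment used TopHat2 2.0.12 with Bowtie 1.1.0 and the mm10 build. How reads were counted, with which annotation and strand setting, is not given in the sources used here. These values hold no counts, so depth is unknown and precision rests on the spread between mice, which are separate animals.

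Genes with a mean above 0 were fitted in limma 3.58.1 (R 4.3.3; eBayes with trend) with genotype, sex, cohort and RIN over all libraries; p-values are two-sided and Benjamini-Hochberg adjusted over all genes tested. No pseudocount was added. The scripts were tested on simulated data. Permutation tests drew 100000 resamples. The members, role groups and lists were chosen with earlier results of these data known. Members named are those called, the 10 of lowest p in KO against WT, the extremes of each role, textbook endolysosomal members, the extremes of level and WT spread, and the 6 of lowest p for cohort; Rab21 and Rab24 (motif) and Snx10 were named after their values were seen. The cohort comparison's alternatives, the 0.2 bound and the motifs were also chosen after seeing the data. Of the members, 48 overlap another gene of the table. Where the partner lies on the other strand, shared reads cannot be told apart without strand. Some partners lie on the same strand, such as Glod4 for Vps53, Ramp2 for Vps25, Gm20388 for Rab4a and Gm20537 for Snx14. Strand alone would not separate those reads. Alternatives were other filters, covariates, centring, trend, weights, subsets and each library left out.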

Additional observations from a re-analysis of the deposited data

Results flagged for a closer look

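In each genotype of 10 mice, the gap between the highest or lowest mouse and its neighbour was set against the group's range, a check that chance passes in about 1 of 20 groups. Of 204 groups of the named members 9 passed it, and 18 of 339 over all members. Rab1 was lowest in HET replicate 4 (9.58). WT replicate 6 was lowest for Rab35 (8.26) and Rab3d (4.97). Rab40c was lowest in WT replicate 7 (7.14) and highest in KO replicate 7 (7.47). KO replicate 4 was lowest for Snx27 (8.49) and highest for Snx5 (8.44). Snx6 was highest in HET replicate 3 (8.62), and Vps4a in HET replicate 1 (8.87). Of these genes, Snx5 and Snx27 were called for cohort; none was called in KO against WT.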

How the results depend on the processing

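In KO against WT 1 member was called as reported, 0 with genotype alone, 2 with array weights (Rab31 and Snx16), 0 in cohort 2 alone, 0 in females alone and 0 in males alone. Cohort 1 alone called 1, Snx22 in place of Rab31. With 1 library left out the count lay between 1 and 2, for the slope over deleted copies also between 1 and 2, and the slope gave 0 with genotype alone and 2 with array weights. HET against WT and KO against HET gave 0 throughout. For cohort, WT mice alone called 1 member, HET mice alone 0 and KO mice alone 0, with fewer mice in each fit, and leaving out 1 library gave 23 to 33.

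Differences near 0 changed sign in some fits. Of 113 members, 73 had another sign in at least 1 of 12 alternatives to the KO against WT fit, and 27 with 1 library left out, so the sign of a difference that was not called carries little weight. Rab31 kept its sign in all of them, though the fits with another filter or no intensity trend cannot change an estimate. For the named members the values of changed sign were as follows. Genotype alone and the fit without RIN gave 6.1e-05 for Rab40c. Array weights gave 0.018 for Rab30, -0.048 for Snx20, 0.0084 for Rab5b and 0.0019 for Rab40c. The fit of only KO and WT gave -0.0013 for Snx20 and 0.00010 for Rab5b. Cohort 1 alone gave 0.060 for Rab30, -0.0062 for Rab8a and 0.018 for Rab5b. Cohort 2 alone gave 0.024 for Rab13, -0.078 for Rab42, 0.10 for Rab38, -0.027 for Rab6a, -0.019 for Vps35, -0.038 for Snx20, -0.035 for Vps4a, -0.0029 for Vps26b, -0.029 for Vps11, 0.0017 for Snx22, -0.028 for Snx1, 0.092 for Vps13c, -0.0055 for Rab32, 0.0094 for Snx3, -0.052 for Vps26a, -0.028 for Rab10, -0.0076 for Vps41, 0.019 for Rab11b, -0.023 for Rab5a and -0.030 for Rab12. Females alone gave 0.0024 for Rab35, -0.0014 for Vps33b, -0.031 for Rab6a, -0.0069 for Rab3a, -0.025 for Vps35, -0.0083 for Vps4a, 0.0050 for Rab3d, -0.013 for Vps26b, -0.060 for Vps11, -0.061 for Rab27a, -0.020 for Snx14, -0.032 for Vps26a, 0.00097 for Rab5b, -0.022 for Rab10, -0.025 for Snx6, -0.035 for Vps41, -0.0018 for Rab3c, 0.053 for Rab11b, -0.013 for Rab5a, -0.0032 for Rab12 and -0.0067 for Snx2. Males alone gave -0.021 for Vps39, -0.032 for Snx7, 0.0077 for Rab7, 0.081 for Rab30, -0.037 for Snx20, 0.041 for Vps13c, 0.026 for Rab5b, 0.0037 for Rab27b, 0.0051 for Vps13a and 0.0059 for Rab9. With 1 library left out the range was -0.015 to 0.00077 for Rab7, -0.038 to 0.017 for Rab30, -0.00093 to 0.011 for Rab6a, -0.0078 to 0.036 for Rab8a, -0.073 to 0.041 for Snx20, -0.0027 to 0.011 for Vps26b, -0.0098 to 0.023 for Vps11, -0.074 to 0.0070 for Vps13c, -0.0047 to 0.020 for Vps26a, -0.0079 to 0.010 for Rab5b, -0.0044 to 0.013 for Rab10, -0.0071 to 0.023 for Rab3c, -0.021 to 0.011 for Rab40c and -0.031 to 0.0025 for Snx32. For cohort, HET mice alone gave -0.0045 for Snx5 and 0.032 for Snx27, and KO mice alone -0.0081 for Snx10. The cause of these changes was not tested. No paired analysis was possible because the labels carry no replicate numbers; those used here follow accession order.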
